A study of Mus musculus with 21 samples.

Results

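The transcripts followed here are those of 10 genes of the circadian clock, Per1, Per2, Per3, Cry1, Cry2, Ciart, Clock, Nr1d1, Nr1d2 and Dbp, in mouse primary cortical neurons carrying mutant human tau or none, with and without AdipoRon, a small molecule that activates the adiponectin receptors. The genes were taken by name as core clock components and a clock output. All 10 were listed in each of the 4 deposited tables, among 19399 genes that every table held. PolyA RNA had been sequenced from 21 cultures. Of the 10 Tau cultures, 5 were given DMSO and 5 AdipoRon, and of the 11 WT cultures DMSO was given to 5 and AdipoRon to 6. Neurons came from newborn pups, and the Tau neurons expressed hTau P301S from a prion promoter and received pre-formed tau fibrils on day 7. The paper's methods name fibrils for the transgenic neurons only, whereas its results date the RNA of both genotypes from seeding. Whether WT neurons received fibrils is thus unclear. If they did not, transgene and seeding cannot be told apart. After 18 more days, cultures received AdipoRon or the vehicle DMSO for 24 h, in both cases with a partial medium change. The tags of the samples state a dose of 10 μM, whereas their treatment protocol reads 10 mM. A time of day for the collection is not given in the sources used here.

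The only measurement of the tables that was used is the authors' mean level of each gene, in log2 CPM (the count of a gene scaled to the total of its library), over the cultures of both groups that a table compares. Each table is therefore treated as 1 pool: the DMSO pool (Tau and WT), the AdipoRon pool (Tau and WT), the Tau pool (DMSO and AdipoRon) and the WT pool (DMSO and AdipoRon). The AdipoRon pool against the DMSO pool shows treatment across both genotypes, and the Tau pool against the WT pool shows genotype across both treatments. A pool has 1 value per gene and no replicate error, so differences are described without a test, and no response can be given for 1 genotype alone. The tables may have been normalized separately, and the depth of each culture is unknown. The pools follow the names of the tables, since the labels of the WT cultures name the tables differently. The DMSO and AdipoRon pools together cover the cultures of the Tau and WT pools together, and over all genes the sums of the paired log2 values differed by a median of -0.0041, with -0.0862 to 0.0422 as the 5th to 95th percentile. For the 10 clock genes this difference lay between -0.11 (Per3) and 0.0051 (Cry1). For Tef, a pathway gene, it was -0.28. Sums of log2 values part in this way where the treatment pools lie far apart and the genotype pools do not. In CPM, Tef was at 213 in the DMSO pool and 473 in the AdipoRon pool, with 363 (Tau) and 337 (WT) between them. A gap below 0 in such a gene is therefore not by itself a mismatch of the pools.

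The clock is a loop of transcription that most cells run on their own, with a period of about a day. CLOCK pairs with BMAL1 (gene Arntl) and binds E-boxes to switch on the Per and Cry genes, whose proteins return to the nucleus and silence that pair. A second loop runs through the nuclear receptors REV-ERB (Nr1d1, Nr1d2) and ROR, and output factors such as DBP bind D-boxes in further genes. In the brain the suprachiasmatic nucleus keeps time for the animal, and cells of the cortex hold clocks that it sets.

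Promoter windows of RefSeq (build GRCm38.p6, 250 bases before to 50 after each start site) were at hand for 9 of the 10 genes, Per2 being the exception. Stretches from 5 of them are shown because they hold the letters that clock factors are known to read. They run 5′ to 3′ on the strand of the gene. Capitals mark a D-box (TTATGTAA or TTACGTAA), an E-box (CACGTG) or an E-prime box (CACGTT, which reads AACGTG on the other strand).
Per3 (chr4:151044796-151044885, minus strand): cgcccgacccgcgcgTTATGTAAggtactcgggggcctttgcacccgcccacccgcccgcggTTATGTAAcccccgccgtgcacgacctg
Ciart (chr3:95882259-95882358, minus strand): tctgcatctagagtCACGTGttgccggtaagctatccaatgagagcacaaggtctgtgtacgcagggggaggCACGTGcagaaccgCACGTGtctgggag
Cry1 (chr10:85185095-85185154, minus strand): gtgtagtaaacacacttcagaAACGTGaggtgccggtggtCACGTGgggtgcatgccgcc
Per1 (chr11:69098771-69098800, plus strand): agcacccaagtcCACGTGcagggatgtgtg
Nr1d1 (chr11:98775378-98775437, minus strand): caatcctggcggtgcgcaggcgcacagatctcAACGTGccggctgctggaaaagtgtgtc

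Per3 held 2 identical D-boxes, whose first bases lie at -205 and -158 from its start site. A D-box was present in 1.06% of all 32851 windows, and 2 or more in 8 windows (0.0244%). Ciart held 3 E-boxes and Cry1 and Per1 held 1 each, against 7.15% of windows with at least 1 and 0.0883% with at least 3. These shares are not matched for the letters CG, which an E-box holds. CG occurred 19 times in the window of Ciart, 38 in that of Cry1 and 16 in that of Per1 with the E-box. Over all windows the median was 7 and the 75th percentile 20. An E-prime box was found in Cry1, Cry2 and Nr1d1 (4.68% of windows). Neither a ROR and REV-ERB element (TAGGTCA, 2.61% of windows) nor a cAMP response element (TGACGTCA, 1.79%) was found in the windows of these genes. No match overlapped another, both strands were searched, and a match of letters is not a bound site. Only exact letters within these windows were searched, so near matches and sites farther from the start site would be missed.

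**Figure D1:**
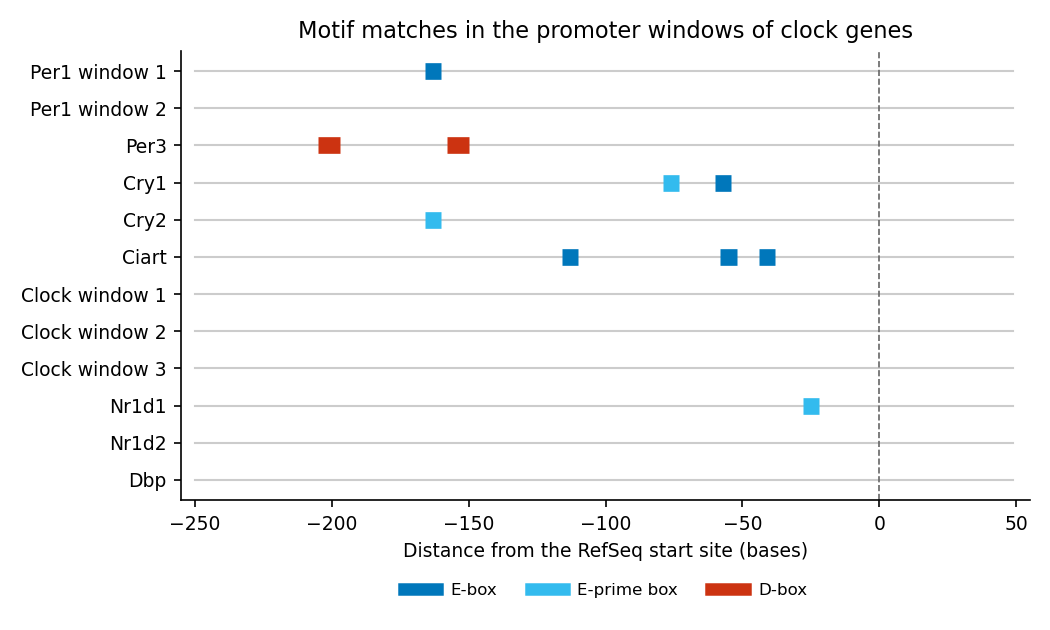
Position of motif matches, in bases from the RefSeq start site (dashed line), in each promoter window of 9 clock genes, with 1 grey line per window. The 2 D-boxes of Per3 and the 3 E-boxes of Ciart stand out, and Clock, Nr1d2 and Dbp held no match.

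All clock genes were expressed. Their mean over the pools ran from 3.81 log2 CPM for Ciart, at the 47.8th percentile of all genes, to 6.85 log2 CPM for Clock, at the 89.4th percentile. Per kilobase of the longest transcript, on the log2 CPM scale, Dbp was highest at 5.84, followed by Nr1d1 at 4.56, Cry2 at 4.30 and Nr1d2 at 4.29. Clock followed at 3.54, Per3 at 3.32, Per1 at 3.26 and Ciart at 2.83, and Per2 (2.58) and Cry1 (2.55) were lowest. The neighbours Cry2 and Nr1d2, Per3 and Per1, and Per2 and Cry1 differed by less than the range of either gene over the pools, so their order is not settled. Clock and Per3 differed by less than the range of Per3 (0.64), and Ciart and Per2 by less than that of Per2 (0.58). The order within these pairs also changed between pools. Per kilobase of coding length Dbp still led, but Nr1d1 (5.20) came behind Nr1d2 (5.99), Cry2 (5.51) and Clock (5.49). Without the length correction Clock led, whose longest transcript has 9911 bases, against 1890 for Dbp.

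Across treatment, the period genes lay on opposite sides. Per3 was 1.56-fold higher in the AdipoRon pool, Per2 was 1.50-fold lower and Per1 was 1.23-fold lower, while the output gene Dbp was 1.34-fold higher. The other 6 genes, Clock and both REV-ERB genes among them, differed by no more than 0.17 log2 units. One clock gene lay at least 0.5 log2 units (1.41-fold) higher and 1 at least as far lower, where 4.40% and 6.30% of all genes did. At 0.25 log2 units (1.19-fold), 2 were higher (Per3, Dbp) and 2 lower (Per1, Per2), against 16.1% and 14.6% of all genes. The median difference of the 10 genes was 0.02, beside 0.03 for all genes, and 5 of the 10 were above 0, against 55.5% of all genes.

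**Figure D2:**
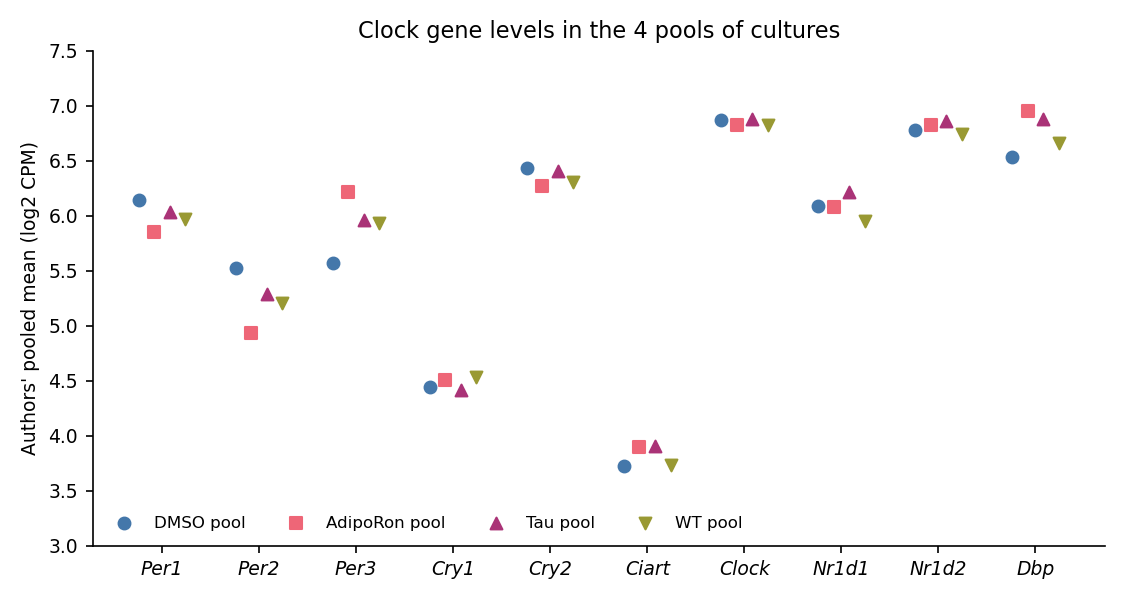
Authors' pooled mean level (log2 CPM) of each clock gene in the DMSO, AdipoRon, Tau and WT pools, 1 point per pool and with no error bars because a pool has no replicate values. Per2 and Per3 are nearly level in the DMSO pool (5.52 and 5.57) and apart in the AdipoRon pool (4.94 and 6.21).

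The negative limb holds the genes whose proteins silence CLOCK and BMAL1. Per3, a period gene that is dispensable for the core rhythm, was at 5.57 log2 CPM in the DMSO pool, 6.21 in the AdipoRon pool, 5.96 in the Tau pool and 5.93 in the WT pool. The treatment pools lay on either side of the genotype pools, which were nearly level. Each genotype pool mixes both treatments, so this place between them follows from the pooling. The difference of 0.64 was at the 97.7th percentile of all genes. Per3 is also the gene with the pair of D-boxes printed above. Whether these D-boxes, or the factors that read them, bear on the difference was not tested.

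Per2, a core repressor and a scaffold of the repressive complex, was at 5.52 log2 CPM in the DMSO pool, 4.94 in the AdipoRon pool, 5.29 in the Tau pool and 5.21 in the WT pool. Its difference between the treatment pools, -0.58, was at the 4.89th percentile of all genes. In CPM, Per2 and Per3 stood at 45.9 and 47.6 in the DMSO pool and at 30.6 and 74.1 in the AdipoRon pool.

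Per1, which responds fast to cAMP and calcium signals, was at 6.14 log2 CPM in the DMSO pool, 5.85 in the AdipoRon pool, 6.03 in the Tau pool and 5.97 in the WT pool. It thus shared the order of pools of Per2, at a smaller size: -0.29 between the treatment pools, the 12.5th percentile. This order was also that of Cry2. The median treatment difference of 8 neuronal markers was -0.21, with 1 of them higher, where 55.5% of all genes were. Per3 and Dbp lay higher instead, and the part of the marker shift in any clock gene was not tested.

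Cry2, which encodes a cryptochrome that represses CLOCK and BMAL1, had 6.44 log2 CPM in the DMSO pool, 6.27 in the AdipoRon pool, 6.41 in the Tau pool and 6.31 in the WT pool. Cry1, its stronger relative, had 4.45, 4.50, 4.41 and 4.53 log2 CPM in the same order of pools. Cry1 was the only clock gene that was lower in the Tau pool than in the WT pool. Ciart, also called Chrono, encodes a further repressor of CLOCK and BMAL1, and was at 3.72 log2 CPM in the DMSO pool, 3.90 in the AdipoRon pool, 3.91 in the Tau pool and 3.73 in the WT pool. Its treatment and genotype differences were alike, at 0.17 each.

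Clock, the activator, was the steadiest of the 10, at 6.87 log2 CPM in the DMSO pool, 6.83 in the AdipoRon pool, 6.88 in the Tau pool and 6.82 in the WT pool, a range of 0.05. Nr1d1, which encodes REV-ERBα, a repressor of Arntl, was at 6.09 log2 CPM in the DMSO pool and 6.08 in the AdipoRon pool, but at 6.22 in the Tau pool and 5.95 in the WT pool. Nr1d2 (REV-ERBβ) was at 6.78 log2 CPM in the DMSO pool, 6.82 in the AdipoRon pool, 6.86 in the Tau pool and 6.75 in the WT pool. Both receptors thus separated by genotype more than by treatment.

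Dbp, a D-box activator and a direct output of the clock, was at 6.53 log2 CPM in the DMSO pool, 6.95 in the AdipoRon pool, 6.88 in the Tau pool and 6.66 in the WT pool. It was higher both with AdipoRon, by 0.42 (percentile 93.5 of all genes), and in the Tau pool, by 0.22 (percentile 87.1).

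The genes whose 4 pool values, centred on their mean, lay closest to those of Per3 were Hrh3, Cdk20, Ssbp2, Ttc39a and Slc24a4, at Euclidean distances of 0.0050 to 0.0192 log2 units among 14292 genes searched. Hrh3, a histamine receptor gene, had a treatment difference of 0.64 and a genotype difference of 0.03, as Per3 did. With only 4 values, a profile holds little more than these differences.

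Between genotypes, the differences were smaller. The Tau pool was higher for 9 of the 10 clock genes, against 49.7% of all genes, with a median difference of 0.09 beside -0.0008 for all genes. No clock gene lay 0.5 log2 units higher or lower, where 3.43% and 3.57% of all genes did. Among genes at a log2 CPM of 1 or more, where all 10 clock genes lie, the share past this limit in either direction was 3.88%, against 7.01% of all genes. Nr1d1 alone lay at least 0.25 higher, at 0.26 log2 units or 1.20-fold (11.2% of all genes), and none lay as far lower (9.02%). Nr1d1 was at the 89.5th percentile of all genes for this difference. Per3 had the smallest, at 0.03. For 6 of the 10 genes the treatment difference was the larger one, and for Cry1, Clock, Nr1d1 and Nr1d2 the genotype difference was. Ciart was among the 6 by a near tie, at 0.1745 by treatment and 0.1725 by genotype. Treatment differences were also wider over all genes, with a standard deviation of 0.37 against 0.26 by genotype. The share of all genes with the larger difference by treatment was not computed.

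**Figure D3:**
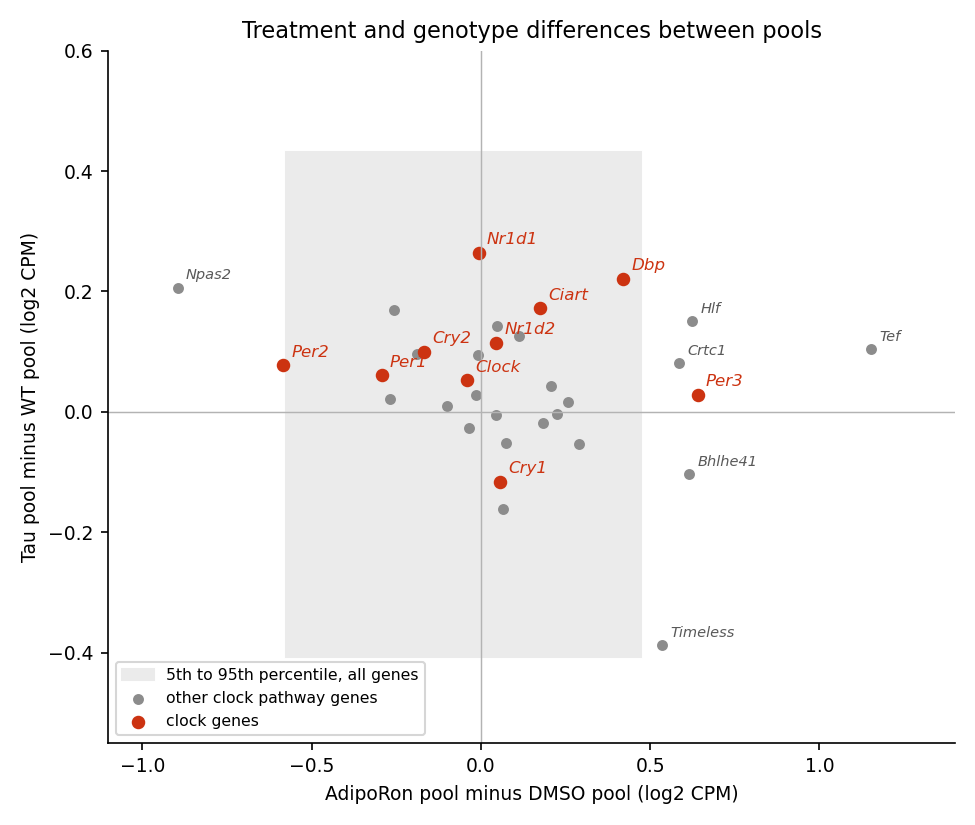
Difference between the AdipoRon and DMSO pools (horizontal axis, log2 CPM) against that between the Tau and WT pools (vertical axis, log2 CPM), for the clock genes (red) and other genes of the clock pathway (grey, named where at least 0.5 apart by treatment). The grey box spans the 5th to 95th percentile of all genes on each axis. Per3 (0.64) lies outside it, and Per2 (-0.58) lies just outside its edge.

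A list of 23 further clock pathway genes was read beside the 10. All 23 were in every table, 15 were higher in the AdipoRon pool, where 55.5% of all genes were, and their median treatment difference was 0.07, beside 0.03 for all genes. At least 0.5 log2 units higher were 5 of them, Tef, Hlf, Bhlhe41, Crtc1 and Timeless, and 1 was as far lower, Npas2, against 4.40% and 6.30% of all genes. None lay 0.5 log2 units higher or lower in the Tau pool than in the WT pool, where 3.43% and 3.57% of all genes did. Tef and Gsk3b were the most abundant in log2 CPM without regard to length, and Fbxl21 the least (2.20 on average).

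Tef had the largest treatment difference of this list in either direction. This gene, a relative of Dbp that binds the same letters, was at 7.73 log2 CPM in the DMSO pool, 8.89 in the AdipoRon pool, 8.50 in the Tau pool and 8.40 in the WT pool, so that it was 2.22-fold higher with AdipoRon. Hlf, the third relative, was at 6.16 in the DMSO pool, 6.78 in the AdipoRon pool, 6.60 in the Tau pool and 6.45 in the WT pool. Dbp, Tef and Hlf, the 3 activators of D-boxes, lay higher in the AdipoRon pool, as 55.5% of all genes did. Nfil3, which represses from D-boxes, differed by -0.01.

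On the positive limb, Npas2, which can stand in for CLOCK, was at 4.52 log2 CPM in the DMSO pool, 3.63 in the AdipoRon pool, 4.23 in the Tau pool and 4.03 in the WT pool. It was 1.86-fold lower with AdipoRon, at the 2.12th percentile of all genes. Arntl, the partner of CLOCK, differed by -0.19 log2 units and Arntl2 by 0.05. Rora and Rorb, which encode nuclear receptors that activate Arntl, differed by -0.27 and 0.11. Bhlhe41, or DEC2, a repressor at E-boxes, was 0.61 log2 units higher with AdipoRon, and its relative Bhlhe40 0.18.

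The 5 listed genes for kinases and ubiquitin ligase subunits that set the stability of PER and CRY proteins (Csnk1d, Csnk1e, Fbxl21, Btrc, Fbxw11) were above 0 for the treatment difference, as 55.5% of all genes were, at 0.07 to 0.29 log2 units, and none reached 0.5. Among input genes, Crtc1, a coactivator of CREB, was 0.59 higher, and Creb1 (0.04), Sik1 (-0.04), Gsk3b (-0.10) and the AMPK subunit genes Prkaa1 (-0.01) and Prkaa2 (-0.26) differed less. Timeless, whose product acts mainly at replication forks in mammals, was 0.53 higher with AdipoRon and differed by -0.39 between the Tau and WT pools, and Tipin, which encodes its partner, differed by 0.07 and -0.16.

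**Figure D4:**
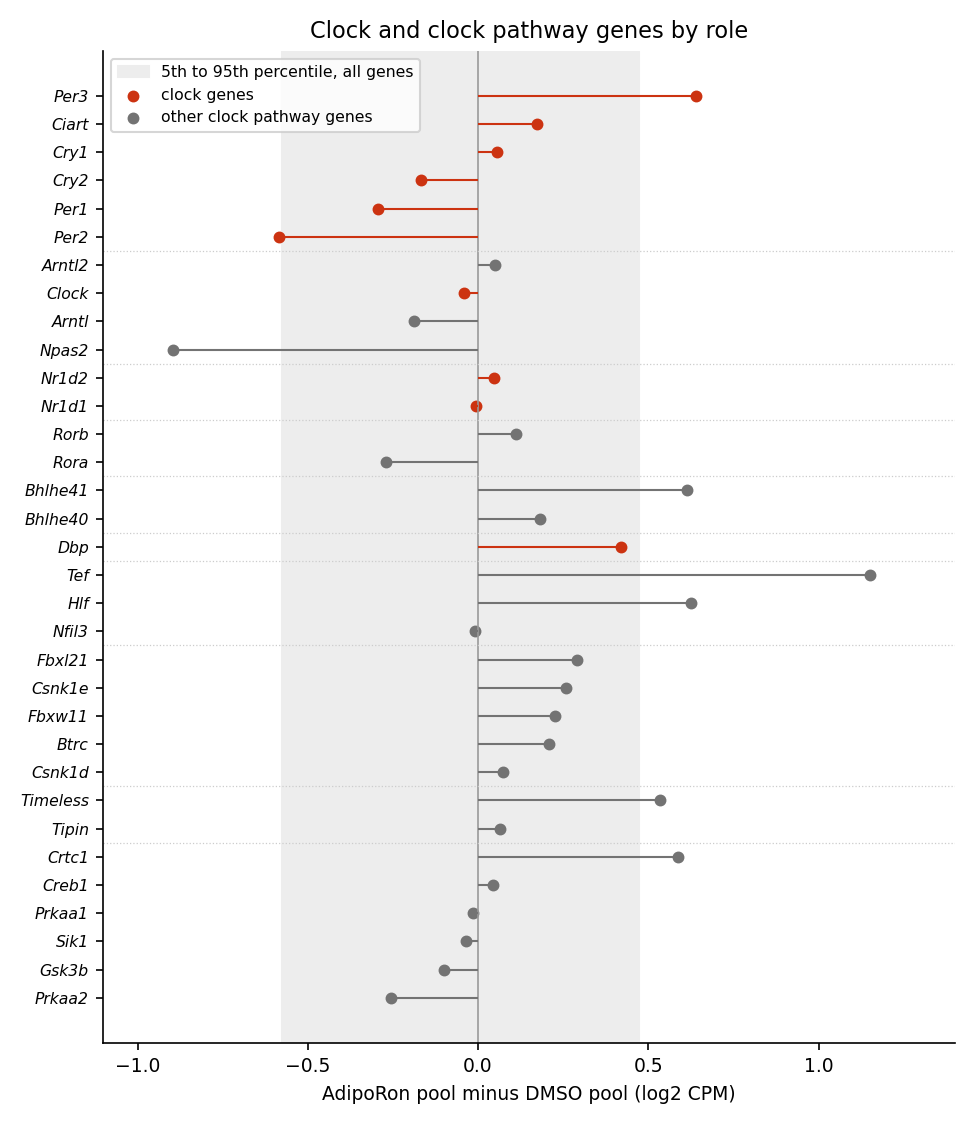
Difference between the AdipoRon and DMSO pools (log2 CPM) for the 10 clock genes (red) and the 23 other clock pathway genes (grey), in groups by role that dotted lines set apart. The grey band spans the 5th to 95th percentile of all genes, and Tef (1.15) and Npas2 (-0.90) lie furthest out.

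The cultures were not of neurons alone, although they had been treated with AraC to remove glia. The neuronal markers Snap25 and Map2 were at 10.1 and 9.70 log2 CPM in the DMSO pool, the astrocyte marker Gfap at 10.7 and Olig1, of the oligodendrocyte lineage, at 9.42. In bulk RNA, fewer cells of a type and less RNA per cell cannot be told apart. With AdipoRon, 7 of 8 neuronal markers were lower and their summed level differed by -0.20 log2 units, from 12.1 to 11.9. The summed astrocyte markers differed by 0.14 (3 of 5 higher), those of the oligodendrocyte lineage by -0.19 (2 of 5 higher), of microglia by -0.21 (2 of 5 higher) and of vessels by 0.21 (2 of the 3 in all tables higher, Cldn5 in none of the tables). Nearly all of the vascular sum was Pdgfrb, at 26.3 CPM in the DMSO pool and 30.3 CPM in the AdipoRon pool. In these pools Kdr was at 0.77 and 1.15 CPM, and Pecam1 at 0.50 and 0.49 CPM. In the Tau pool, all 5 microglial markers were lower than in the WT pool and their sum differed by -0.997 log2 units, from 6.62 in the WT pool to 5.62. All 5 markers of the oligodendrocyte lineage were lower there too (sum -0.38), 7 of 8 neuronal markers were higher (sum 0.14), and astrocyte (-0.01) and vascular (-0.09) sums were nearly level. The part of these shifts in the levels of the clock genes was not tested.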

How the data were processed

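PolyA RNA of 21 cultures was sequenced, and samples were grouped by genotype and treatment from their titles. According to the methods, the authors trimmed reads, aligned them to mm10 with STAR, counted them with RSEM and compared groups in edgeR. A different build is named elsewhere in the paper, and Rsubread in the names of the tables. The deposited tables hold the authors' mean level in log2 CPM per gene, pooled over both groups compared. Their other columns hold the authors' own fold changes, likelihood ratios, p-values and false discovery rates, and were not used. Libraries' normalization and gene filters are not given in the sources used here.

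Pooled levels were subtracted between tables (Python 3.11.15, pandas 2.3.3, numpy 2.4.6), over the 19399 genes in all 4 tables, with limits of 0.5 and 0.25 log2 units. The calculation was tested on simulated data. Lengths came from GENCODE vM39, and gene positions and promoters from RefSeq. Genes named are the 10 clock genes, pathway genes past the limit or at the ends of the range of levels, and the 5 genes closest to the clock gene with the widest range. Remaining pathway genes and the markers were named after their values were seen. Some genes of the pathway list are not reported here and were left out of its counts. Members and lists were chosen with earlier results of these data known. Alternatives were other centrings, limits, backgrounds and lengths, and equal shares of groups in each pool, which was chosen after seeing the data.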

Additional observations from a re-analysis of the deposited data

How the results depend on the processing

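No paired analysis was possible because the tables hold pooled means and no value per culture, so no culture could be left out either. The paper's reporting summary says that the treatments were given to samples of the same animal. DMSO and AdipoRon cultures may therefore come from the same pups. Centring the differences on the median of all genes, or of the genes over a log2 CPM of 4, left every count of clock and pathway genes past 0.5 log2 units as it was, as did giving each pool equal shares of the groups, where the difference of Nr1d1 by treatment became 0.0054. At a limit of 0.25 log2 units, 16.1% of all genes were higher with AdipoRon and 14.6% lower. Of the clock genes 2 were higher and 2 lower, and of the pathway genes 7 were higher and 3 lower (Npas2, Rora, Prkaa2). By genotype, 11.2% of all genes were higher and 9.02% lower at this limit. Here 1 clock gene was higher (Nr1d1) and none lower, and 1 pathway gene was lower (Timeless) and none higher. Against genes within 0.5 log2 CPM of their own level, the treatment percentile of Dbp became 96.6, and the genotype percentiles of Nr1d1 and Dbp became 99.3 and 98.3. In the order of levels, 5 of the 10 clock genes kept their place per kilobase of coding length and 0 without a length correction.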

Other observations

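Markers of the suprachiasmatic nucleus were read as a check on the origin of the clock transcripts, and 3 of the 6 (Vip, Prok2, Lhx1) were in all tables. Vip, a neuropeptide of that nucleus and of cortical interneurons, was at 5.57 log2 CPM in the DMSO pool, 3.37 in the AdipoRon pool, 4.82 in the Tau pool and 4.82 in the WT pool, a treatment difference of -2.20 (percentile 0.21 of all genes). For Vip the DMSO and AdipoRon pools summed to -0.70 log2 units from the Tau and WT pools. Sums of log2 values part in this way where only the treatment pools lie far apart. In CPM, Vip was at 47.5 in the DMSO pool and 10.3 in the AdipoRon pool, with 28.3 (Tau) and 28.2 (WT) between them. Prok2 (-0.73 in the DMSO pool and -1.81 in the AdipoRon pool) and Lhx1 (-1.36 and -1.49) were far less abundant. Six6 and Nms were in none of the tables, and Avp was in that of the AdipoRon pool alone, at -2.01.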
